A study of Rattus norvegicus with 6 samples.

Results

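The 5 genes described here serve the release of transmitter from nerve terminals. They are the vesicular glutamate transporters Slc17a7 (ENSRNOG00000020650, VGLUT1) and Slc17a6 (ENSRNOG00000016147, VGLUT2), and the general release genes Syn1 (ENSRNOG00000010365, synapsin I), Snap25 (ENSRNOG00000006037) and Syt1 (ENSRNOG00000006426, synaptotagmin 1). They were taken by gene ID from a table of 32754 genes, and all 5 had enough reads to be among the 14818 genes tested. The table gives gene IDs without symbols, and the symbols are those under which the IDs were chosen. The reference table at hand holds all 5 symbols but pairs none with an Ensembl ID, so the pairing was not checked against the Rnor_6.0 annotation.

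RNA was sequenced from 6 rat embryos at embryonic day 18 (E18). The control group was 3 Sprague-Dawley (SD) rats, 2 males and 1 female, and the other group 3 rats of the tish line, also 2 males and 1 female. In the tish rat neurons collect below the normally placed cortex on both sides of the brain, and the series title names a deletion in Eml1, a gene for a microtubule-associated protein. SD tissue was neocortex per the protocol, and tish tissue was the normotopic and the heterotopic cortex together, although the sample labels name the SD tissue cortex and the tish tissue neocortex. The tissue taken and the rat line (SD or tish) therefore changed together with the genotype and cannot be told apart from it, and the labels used here give no litter.

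Glutamate is loaded into synaptic vesicles by the transporters VGLUT1 and VGLUT2. In the rodent forebrain VGLUT1 is the main form of mature cortical neurons, while VGLUT2 is known for thalamic and other subcortical neurons and for early stages of the cortex. Synapsin I coats vesicles and tethers them in a reserve pool. SNAP-25 is a SNARE protein of the plasma membrane, part of the complex that fuses the vesicle with it, and synaptotagmin 1 is the vesicle's calcium sensor, which sets off fusion. As cortical neurons mature, the RNAs of VGLUT1 and of the release proteins increase, while that of VGLUT2 declines in the cortex.

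The RNAs of the 3 release proteins, Syn1, Snap25 and Syt1, rose in tish cortex by 1.56-fold to 1.81-fold, and each was higher in every tish library than in any SD library. The call of Snap25 was lost when any 1 tish library was left out. The 2 transporters did not pass the test: Slc17a7 was 1.51-fold higher and Slc17a6 was 1.37-fold lower in tish, and the sign of Slc17a6 turned without the library SD 1. So 3 of the 5 genes were called higher and 0 lower (edgeR quasi-likelihood test, Benjamini-Hochberg adjusted p under 0.05 over all tested genes). Over all tested genes 26.3% were called, 13.4% higher and 12.9% lower. The median log2 fold change of the 5 was 0.64, against -0.017 over all tested genes. In bulk tissue more cells of a type and more RNA per cell cannot be told apart.

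Library totals ran from 15625915 to 20844504 counts. The gene counts behind each value lay between 720 and 7217, so counting error alone was 1.18% to 3.73% of a value, while the coefficient of variation within a group was 3.75% to 50.1%. In each group 1 library stood apart. SD 1 had 210 tested genes 2-fold or more above both other SD libraries, against 13 and 17 in its replicates, but only 47 that far below both, against 95 and 85, so it stood apart upward. For tish 3, 250 genes were 2-fold or more below both other tish libraries, against 17 and 87 in its replicates. Values of a group are listed in the order of its libraries, 1 to 3. The fold changes of single genes are also given without SD 1, and without SD 1 and tish 3 together. Cell type markers and Eml1 itself were not analysed here, since no ID beyond the 5 had a symbol.

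**Figure D1:**
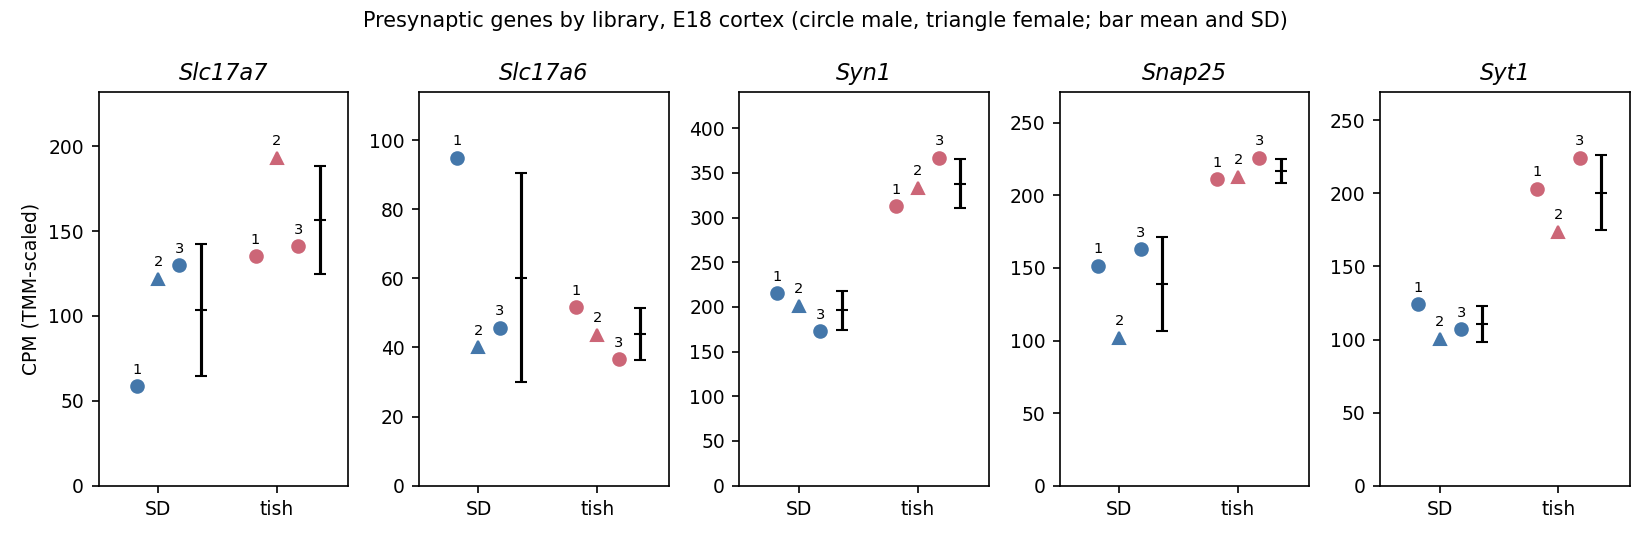
Level of each gene in CPM (counts relative to the library total, scaled by TMM) in the 3 SD and 3 tish libraries, with the replicate number beside each point, males as circles, females as triangles, and the group mean with its standard deviation as a black bar. Syn1, Snap25 and Syt1 lie higher in all 3 tish libraries, while SD 1 is the lowest library for Slc17a7 and the highest for Slc17a6.

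Syn1, the vesicle tether, was counted 3786, 3732 and 3222 times in the SD libraries against 4901, 6870 and 7217 times in the tish libraries. On the CPM scale (library totals scaled by TMM) this was 216, 201 and 173 CPM in SD against 313, 334 and 367 CPM in tish. The lowest tish library was at 1.45 times the highest SD library. The group means with their standard deviations (n = 3 each) were 197 ± 21.9 CPM in SD against 338 ± 27.4 CPM in tish. The log2 fold change was 0.78 (SE 0.10, 95% interval 0.55 to 1.01, edgeR adjusted p = 0.000978), higher than that of 92.9% of the tested genes.

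Syt1, the calcium sensor, had the largest fold change of the 5. Its level was 124, 100.4 and 107 CPM in the SD libraries against 203, 174 and 224 CPM in the tish libraries. The groups were well apart, with the lowest tish library at 1.40 times the highest SD library. The group means with their standard deviations (n = 3 each) were 111 ± 12.2 CPM in SD against 200.5 ± 25.5 CPM in tish. The log2 fold change was 0.86 (SE 0.11, 95% interval 0.60 to 1.12, edgeR adjusted p = 0.00106).

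Snap25, the membrane SNARE, differed less evenly. It was at 151, 102 and 163 CPM in the SD libraries against 211, 213 and 226 CPM in the tish libraries. The tish libraries were nearly equal, with a coefficient of variation of 3.75%, while the SD libraries varied by 23.4%, with SD 2, the female, the lowest. The group means with their standard deviations (n = 3 each) were 139 ± 32.4 CPM in SD against 217 ± 8.12 CPM in tish. The log2 fold change was 0.64 (SE 0.16, 95% interval 0.28 to 1.01, edgeR adjusted p = 0.0195). This call did not hold when any 1 tish library was left out: the edgeR adjusted p was then 0.0602, 0.0527 and 0.0608 without tish 1, tish 2 and tish 3, with log2 fold changes of 0.61 to 0.66.

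The higher level in tish was present in both sexes for the 3 release genes. On the log2 CPM scale the difference was 0.81 in males and 0.73 in females for Syn1, and 0.89 and 0.79 for Syt1. For Snap25 it was 0.48 in males and 1.06 in females. Males were 2 against 2 and females 1 against 1, and a difference between the sexes was not tested.

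Promoter sequences, 250 bases before to 50 after the annotated gene start, were taken from RefSeq on the assembly GRCr8 and matched 4 of the 5 genes by symbol: Slc17a7, Slc17a6, Syn1 and Syt1. Syn1 and Syt1, the pair called under every setting tried, are shown here, 5′ to 3′ on the gene's strand. Syn1 lies at chrX:3725495-3725794 on the + strand and Syt1 at chr7:46244164-46244463 on the - strand. Capitals mark matches to the motifs searched on both strands: the cyclic AMP response element (CRE, TGACGTCA), the GC box (GGGCGG, or CCGCCC on the other strand), and the E-box CAGCTG.
Syn1: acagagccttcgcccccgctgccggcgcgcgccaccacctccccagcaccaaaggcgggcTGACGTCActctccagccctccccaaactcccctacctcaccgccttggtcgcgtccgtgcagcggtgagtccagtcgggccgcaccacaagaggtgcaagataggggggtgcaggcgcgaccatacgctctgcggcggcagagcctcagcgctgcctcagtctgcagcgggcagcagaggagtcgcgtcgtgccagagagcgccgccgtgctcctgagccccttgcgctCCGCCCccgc
Syt1: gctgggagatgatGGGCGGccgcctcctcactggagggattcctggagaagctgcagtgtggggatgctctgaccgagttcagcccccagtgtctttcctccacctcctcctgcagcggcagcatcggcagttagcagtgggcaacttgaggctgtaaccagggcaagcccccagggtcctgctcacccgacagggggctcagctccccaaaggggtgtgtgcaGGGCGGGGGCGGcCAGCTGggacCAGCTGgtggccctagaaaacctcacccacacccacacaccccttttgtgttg

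The windows of Syn1 and Syt1 are rich in G and C and differ in these motifs. The G and C content was 71.0% in Syn1, above 93.0% of 33469 promoters of this length, and 64.3% in Syt1. The Syn1 window holds a full CRE, the site of CREB-type factors, which 1.83% of all promoters hold. Syt1 holds 3 GC boxes, the site of Sp-type factors, of which 2 adjoin. It also holds 2 matches to the E-box CAGCTG, 1 form of the site of basic helix-loop-helix factors. Syn1 holds 1 GC box and 0 of this E-box. Of all promoters 33.1% hold at least 1 GC box and 15.1% at least 1 of this E-box. The median G and C content of all promoters was 51.7%, so these shares are not matched to windows as rich in G and C. A CCAAT box (CCAAT, in 37.5% of all promoters), a TATA box (TATAAA, 14.2%) and the stretch TTCAGCACC of the RE1 element (0.356%) were also searched on both strands, and 0 of the 4 windows hold any of them. Sequence outside the windows was not searched, so a motif missing here can still lie just beyond a window's edge. A match is only a run of letters, and these data measured no binding.

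Slc17a7, the transporter of mature cortical terminals, was at 58.6, 122 and 130 CPM in the SD libraries against 135, 193 and 141 CPM in the tish libraries. The groups did not overlap, but by little: the lowest tish library was 1.04 times the highest SD library. The group means with their standard deviations (n = 3 each) were 104 ± 39.1 CPM in SD against 157 ± 32.0 CPM in tish. The log2 fold change of 0.60 did not pass the test (SE 0.33, 95% interval -0.21 to 1.40, edgeR adjusted p = 0.237). SD 1 was the lowest of the 6 libraries, and tish 2, the female, the highest. Without SD 1 the log2 fold change was 0.32 (edgeR adjusted p = 0.152), and without SD 1 and tish 3 together it was 0.38 (edgeR adjusted p = 0.113). The difference on the log2 CPM scale was 0.66 in males, where SD 1 belongs, and 0.66 in females, and a difference between the sexes was not tested. The male value rested on SD 1, since the other SD male was at 130 CPM against 135 and 141 CPM in the tish males.

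Slc17a6, the transporter of subcortical and early cortical neurons, was at 94.9, 40.1 and 45.7 CPM in the SD libraries against 51.6, 43.6 and 36.6 CPM in the tish libraries. SD 1 was high and the other 5 libraries lay together, so the groups overlapped. The group means with their standard deviations (n = 3 each) were 60.2 ± 30.2 CPM in SD against 44.0 ± 7.52 CPM in tish. The log2 fold change was -0.45 (SE 0.35, 95% interval -1.33 to 0.42, edgeR adjusted p = 0.402). Without SD 1 it was 0.039 (edgeR adjusted p = 0.867), and without SD 1 and tish 3 together 0.15 (edgeR adjusted p = 0.455), so the lower mean in tish rested on that library. The difference on the log2 CPM scale was -0.60 in males, where SD 1 belongs, and 0.12 in females, and a difference between the sexes was not tested.

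Of the 5 genes, 4 had groups that did not overlap, Slc17a7, Syn1, Snap25 and Syt1, all with tish above SD. Over all tested genes every tish library lay above every SD library in 21.7%, and below in 22.6%. Without SD 1 the same 3 release genes were called higher, where 16.5% of the tested genes were. Without SD 1 and tish 3 together, a setting added after seeing the data, the 3 were again called. In that fit 3743 of all tested genes were called in either direction, against 3894 with all libraries. The share called higher in tish was not computed for it. The log2 fold changes of the 3 genes were then 0.79 for Syn1, 0.68 for Snap25 and 0.86 for Syt1. Their edgeR adjusted p was 0.00135, 0.0426 and 0.000986.

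**Figure D2:**
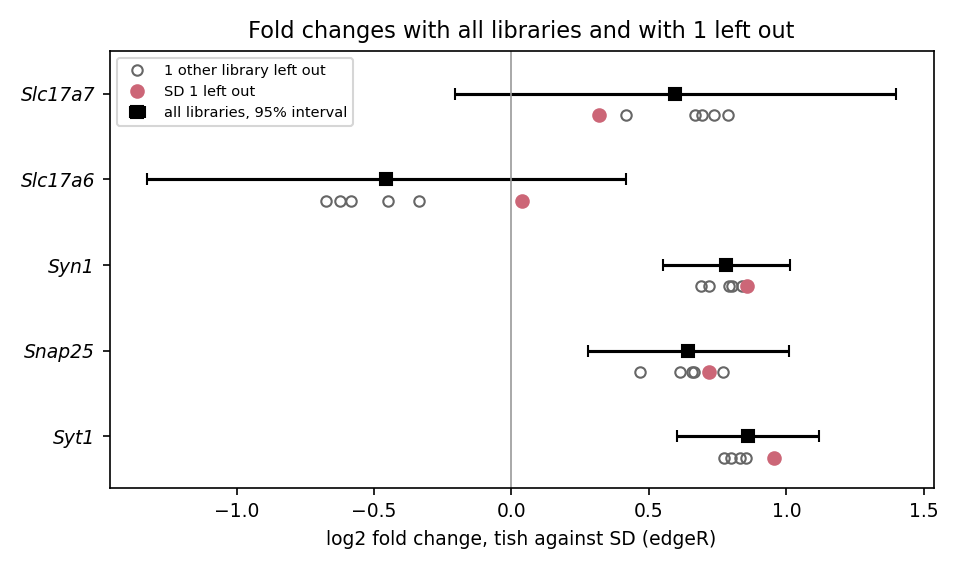
Log2 fold change of tish against SD for each gene, with all 6 libraries as a black square with its 95% interval, and below it the values with 1 library left out, as open circles, or with SD 1 left out, as a filled red circle. Without SD 1 Slc17a6 moves from -0.45 to 0.039 and Slc17a7 from 0.60 to 0.32, while Syn1, Snap25 and Syt1 stay between 0.47 and 0.95 whichever library is left out.

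**Figure D3:**
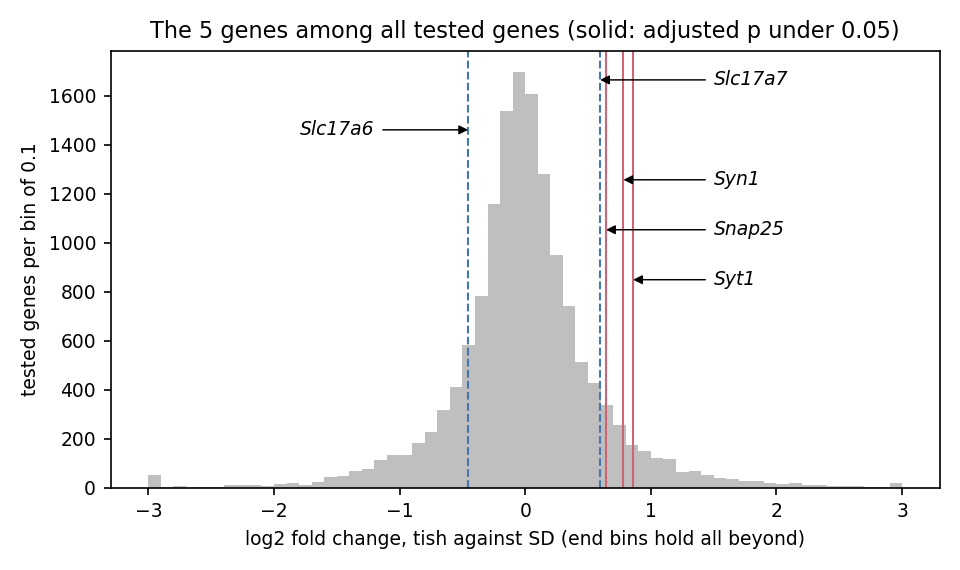
Number of tested genes per bin of log2 fold change (tish against SD, grey bars, with the end bins holding all values beyond), and the 5 genes as vertical lines, solid red where the adjusted p was under 0.05 and dashed blue where it was not. Syn1, Snap25, Syt1 and Slc17a7 lie in the upper part of the distribution, above 89.1% to 94.0% of the tested genes, and Slc17a6 lies above 14.9% of them.

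The transporters moved in opposite directions in the library that stood apart. In SD 1, Slc17a7 lay 1.06 below, against the direction of most outlying genes of that library, and Slc17a6 1.05 above the nearest other SD library on the log2 scale. Of the 14818 tested genes, 37 (0.250%) lay at least as far below both other SD libraries in SD 1 as Slc17a7, and 193 (1.30%) at least as far above as Slc17a6. In the same library the release genes were near their replicates: Snap25 lay between them, Syn1 was 0.10 and Syt1 0.21 above the nearest one. SD 1 is a male, as is SD 3. The part of dissected tissue or cell makeup in this pattern was not tested.

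**Figure D4:**
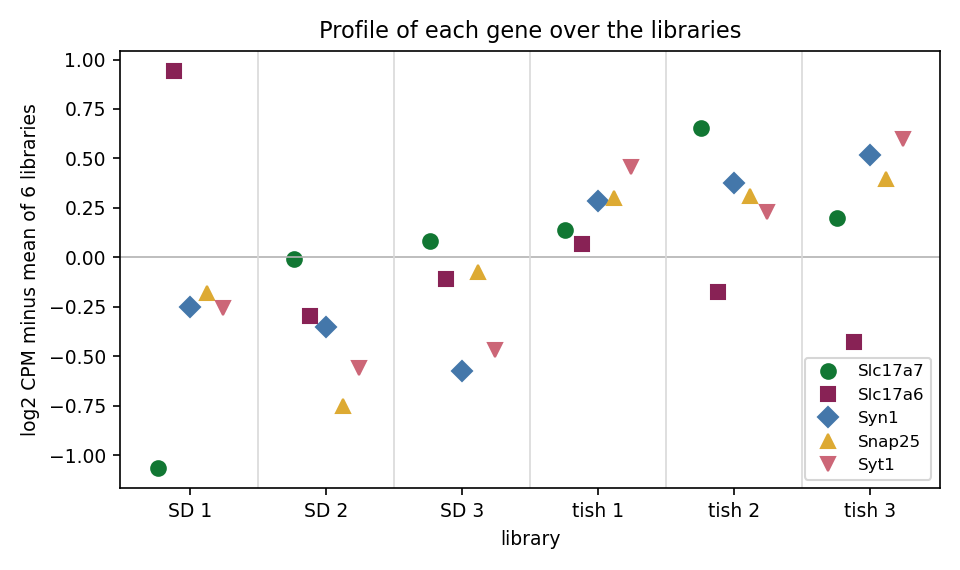
Level of each gene in each library as log2 CPM minus that gene's mean over the 6 libraries. Syn1, Snap25 and Syt1 lie below 0 in all SD libraries and above 0 in all tish libraries, while in SD 1 Slc17a7 is at -1.07 and Slc17a6 at 0.94.

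The promoters of the transporters are shown as those of the pair that parted in SD 1. Slc17a7 lies at chr1:104785955-104786254 and Slc17a6 at chr1:110348197-110348496, both on the + strand of GRCr8 per RefSeq, with capitals for the same motifs.
Slc17a7: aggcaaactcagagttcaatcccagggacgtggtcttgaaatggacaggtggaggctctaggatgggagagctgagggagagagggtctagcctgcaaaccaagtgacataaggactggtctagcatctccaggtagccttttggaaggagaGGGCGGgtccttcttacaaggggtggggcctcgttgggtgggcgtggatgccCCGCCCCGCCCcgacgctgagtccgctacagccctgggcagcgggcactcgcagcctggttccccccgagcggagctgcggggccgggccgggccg
Slc17a6: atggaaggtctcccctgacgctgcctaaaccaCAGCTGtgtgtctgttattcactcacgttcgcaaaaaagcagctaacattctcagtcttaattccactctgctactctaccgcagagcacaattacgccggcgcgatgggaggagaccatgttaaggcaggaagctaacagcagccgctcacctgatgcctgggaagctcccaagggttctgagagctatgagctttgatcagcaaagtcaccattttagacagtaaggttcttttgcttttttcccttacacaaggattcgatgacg

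The Slc17a7 window holds 3 GC boxes, 2 of them overlapping, and the Slc17a6 window holds 0 GC boxes and 1 match to the E-box CAGCTG. Other forms of the E-box were not searched. Their G and C contents were 64.7% and 49.0%, against a median of 51.7% over all promoters of this length. The windows were read on GRCr8 and the counts were made on Rnor_6.0, so the start used here need not be that of the transcripts counted.

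Within a library the ratio of 2 genes' counts needs no scaling, and gene length cancels when it is compared between groups. The ratio of Slc17a7 to Slc17a6 counts was 0.618, 3.05 and 2.85 in the SD libraries against 2.62, 4.43 and 3.85 in the tish libraries. The counts were not corrected for gene length, so the ratio in a single library is not a ratio of transcripts. The groups overlapped: tish 1 lay below SD 2 and SD 3. The mean log2 ratio was 1.02 higher in tish (exact permutation test, two-sided, p = 0.3, adjusted p = 0.75 over the 10 pairs of genes, n = 3 each). Without SD 1 the difference was 0.27, and without SD 1 and tish 3 together 0.21. With 3 libraries against 3 the smallest p this test can give is 0.1.

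For the proportions among the release genes, the log2 ratio of Syn1 to Syt1 counts spanned 0.38 over all 6 libraries, and its mean difference of tish from SD was -0.072 (exact permutation p = 0.6, n = 3 each). The ratio of Syn1 to Snap25 spanned 0.90 and that of Snap25 to Syt1 0.59, with mean differences of 0.11 and -0.18 (exact permutation p = 0.7 and 0.5, n = 3 each). Each of these 3 differences was smaller than the standard deviation of the SD libraries, which was 0.16, 0.45 and 0.29 in the same order. Single libraries moved them. Without SD 2 the differences were 0.015 for Syn1 to Syt1, 0.34 for Syn1 to Snap25 and -0.33 for Snap25 to Syt1, and without SD 3 they were -0.14, -0.11 and -0.034. Without tish 1 and without tish 2 the difference for Syn1 to Syt1 was -0.0046 and -0.16, and without SD 1 the 3 were -0.089, 0.10 and -0.19. In males alone they were -0.077, 0.34 and -0.41.

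Relative to the release genes, Slc17a6 was lower in every tish library than in any SD library. The mean difference of the log2 ratio was -1.14 to Syn1, -1.03 to Snap25 and -1.21 to Syt1 (exact permutation p = 0.1 each, the smallest possible, adjusted p = 0.333 over the 10 pairs, n = 3 each). Without SD 1 these differences were -0.83, -0.72 and -0.92 and the groups still did not overlap. Against genes that rose this was common: of all other tested genes, 78.1%, 69.8% and 80% had a ratio to Syn1, Snap25 and Syt1 that was lower in every tish library. The ratios of Slc17a7 to the release genes overlapped between the groups, with mean differences of -0.12 to Syn1, -0.0097 to Snap25 and -0.19 to Syt1 (exact permutation p = 0.8 to 1, n = 3 each). Without SD 1 they were -0.56, -0.45 and -0.65, and the groups, then 2 libraries against 3, no longer overlapped for the ratios to Syn1 and to Syt1. With all 6 libraries 78.1% and 80% of the other tested genes already had such ratios lower in every tish library. Leaving out a library cannot lower this share among the same genes, so the lack of overlap is not particular to Slc17a7. Without SD 2 or without SD 3 all 3 differences were above 0, from 0.018 to 0.36. Without tish 3 those to Syn1 and Snap25 were 0.0051 and 0.087, so their direction rested on single libraries.

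Likeness of profiles was measured, with all libraries only, as the root mean square difference of log2 CPM over the 6 libraries, after each gene was centred on its mean. Among the 5, Syn1 and Syt1 were the most alike, at 0.137, and Snap25 was nearest to Syt1, at 0.211. Of 14813 other tested genes, 234 (1.58%) were nearer to Syn1 than Syt1 was, and 494 (3.33%) nearer to Snap25 than Syt1 was. For Slc17a6 the nearest of the 5, Snap25, was at 0.638, and 82.7% of the other genes were nearer. The other gene nearest to Syn1 was ENSRNOG00000006989, at 0.0312, counted 6757, 6483 and 5996 times in SD against 8670, 12499 and 12902 times in tish (log2 fold change 0.78, edgeR adjusted p = 0.000828). The one nearest to Snap25 was ENSRNOG00000023338, at 0.0694, counted 525, 362 and 571 times in SD against 654, 816 and 762 times in tish (log2 fold change 0.59, edgeR adjusted p = 0.027). Both genes were picked for their likeness over these same libraries. Their fold changes and adjusted p therefore follow from the choice and are no separate result.

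The median of the 5 genes in a library, each centred on its mean log2 CPM over the 6, was -0.25, -0.35 and -0.11 in the SD libraries against 0.28, 0.31 and 0.40 in the tish libraries. The group means with their standard deviations (n = 3 each) were -0.24 ± 0.12 in SD against 0.33 ± 0.059 in tish, a difference of 0.57, which was 0.56 without SD 1 and 0.53 without SD 1 and tish 3 together. It is a description of these libraries and was not tested. In SD 3 the median was the value of Slc17a6, at -0.11, and in each other library it was that of Syn1 or Snap25.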

How the data were processed

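RNA of 6 cortex samples was sequenced, and the values deposited by the authors are raw counts of reads for each Ensembl ID, in 1 table. Reads were aligned with STAR to Rnor_6.0 and counted with featureCounts 1.5.0, per the submitters' processing notes; annotation release, strand setting and handling of reads with several alignments are not stated there or in the labels. Counts of genes that overlap others are therefore uncertain. The table repeats its genes, and the first line of each ID was used: 32751 lines repeat an ID, 0 values differ between repeats, and 32754 IDs remain. The 3 IDs found on 1 line hold 0 counts.

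The 5 genes, the motifs and the alternatives were chosen with earlier results of these data known. Genes were kept by filterByExpr (minimum count 10), scaled by TMM, and tested by the quasi-likelihood test of edgeR 4.0.16 in R 4.3.3 with genotype as the only term. P-values were adjusted over all tested genes. The SE is the log2 fold change divided by the square root of F, and the 95% interval uses the test's degrees of freedom. Log2 CPM and log2 ratios used a prior count of 2. Ratios were compared by two-sided exact permutation over libraries. The procedure was tested on simulated data. The labels give 3 animals per group but no litter, so p-values measure the spread between these samples. Other settings tried were DESeq2 1.42.0, limma-voom (limma 3.58.1), other scalings and filters, sex as a covariate, males alone and single libraries left out. The removal of SD 1 and tish 3 together, and the alternatives for 9 of the 10 ratios, were added after seeing the data. The rule for named genes took the 5 and, for each, the tested gene of nearest profile, but without symbols at most 2 IDs that rose and 2 that fell, in the order of the 5. A gene was taken to have risen or fallen only where it was called, which the rule itself did not state. This left the genes nearest to Syn1 and Snap25, since the one nearest to Syt1 was the third that rose. Those nearest to Slc17a7 and Slc17a6 were not called (log2 fold change 0.64 and -0.47, edgeR adjusted p = 0.262 and 0.384). A list of other presynaptic genes and lists of cell type markers had been set up by symbol and were not used, since no symbol could be paired with an ID. Replicates were numbered in sample order.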

Additional observations from a re-analysis of the deposited data

How the results depend on the processing

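Of 80 values of the 5 genes' fold changes under other settings, 75 kept their direction and their side of the threshold. These include 16 of 16 for Slc17a7 and 14 of 16 for Slc17a6, where this only means the same sign and still not called. Syn1 and Syt1 stayed called under all 16 alternatives each, with adjusted p up to 0.0173 and 0.00733. With 1 library left out, Syn1 ran from 0.69 to 0.86, Syt1 from 0.77 to 0.95, Snap25 from 0.47 to 0.77, Slc17a7 from 0.32 to 0.79 and Slc17a6 from -0.68 to 0.039 (log2 fold change). Snap25 was no longer called in 3 of these, with adjusted p of 0.0527 to 0.0608. Slc17a6 changed sign without SD 1 (0.039) and without SD 1 and tish 3 together (0.15), and it passed the test under no setting. The number of all tested genes called was 3894 and ran from 2437 to 4764 with 1 library left out. It was 2130 with males alone, where there are fewer samples. The cause of the other shifts was not tested. Depth did not limit the 5 genes, which had at least 720 counts in each library. No paired analysis was run, since the labels give no pairing of SD with tish embryos. Without scaling factors 43.3% of all calls were higher in tish, against 50.8% with TMM. Alternatives for the list of other presynaptic genes were not run.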
